A study of Mus musculus with 18 samples.

Results

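The small leucine-rich proteoglycans (SLRPs) examined here were Bgn, Dcn, Aspn, Lum, Fmod, Omd, Prelp, Ogn and Podn, 9 of the 55335 genes in the count files. They were chosen by symbol, after mapping the Ensembl identifiers of the files to mouse gene names, and all 9 were found. All 9 passed the filter on low counts in the fits of 9 libraries per day and of all 18 libraries, and 7 did at d2.5 when at least 10 counts were asked of every library or when Ctrl+FGF2 and Y/T dKD+FGF2 alone were fitted. Bulk RNA-seq was done on O9-1 cells, a multipotent cranial neural crest line derived from the head of early mouse embryos, which the labels give as wildtype and which were grown in osteoblast differentiation medium. At each of d2.5 and d5 of induction there were 3 groups of 3 libraries. Ctrl+vehicle cells received scramble siRNA and no FGF2, Ctrl+FGF2 cells received scramble siRNA and FGF2, and Y/T dKD+FGF2 cells received siRNA pools against Yap and Taz together with FGF2. All groups therefore carried a transfected siRNA, and there was no knockdown group without FGF2. The knockdown is transient and partial, the culture is 1 line, and the labels do not say whether the 3 replicates were separate cultures, so the p-values measure the spread between these libraries, which may be technical. The labels also give the day as the batch, so day and batch cannot be told apart.

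SLRPs are secreted proteins built around a core of leucine-rich repeats, and most carry chondroitin, dermatan or keratan sulfate chains. They bind fibrillar collagens and shape how fibrils assemble and space, and several also bind growth factors of the TGF-beta family or cell surface receptors. In bone they are part of the organic matrix laid down by osteoblasts. The question put to the data was how RNA of this family responded to FGF2 during osteogenic induction, and whether it differed when Yap and Taz were lowered under FGF2.

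Gene counts per library ran from 10377151 to 14698525. Yap1 in the knockdown was at 51.9% of its Ctrl+FGF2 level at d2.5 and 46.2% at d5, and Wwtr1, which encodes Taz, was at 61.2% and 57.7%. The level of a gene in a library is given below in CPM, the usual scale on which a gene's count is divided by the size of its library. Library sizes were scaled over all 18 libraries. A fold change is the edgeR estimate on the log2 scale. Its standard error is the absolute estimate divided by the square root of the test's F statistic. That value understates the uncertainty of large changes that rest on few counts. A gene is called when its p-value, adjusted over all genes tested, is under 0.05. Of 14 neural crest markers, 8 or 9 averaged at least 1 CPM in each group, while the defining genes Sox10, Foxd3 and Pax7 were at 0 counts in every group, and of 11 osteoblast markers 8 to 11 averaged at least 1 CPM. Intervals on ratios are 95% counting intervals. They cover counting error only, since reads copied in PCR are not independent molecules.

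The 9 genes differed widely in level, and levels of different genes are compared here per kilobase of exon. In Ctrl+vehicle cells at d2.5 biglycan (Bgn), a class I member that carries chondroitin or dermatan sulfate chains, was highest at 508 ± 10.8 CPM per kb (SD, n = 3). It was followed by asporin (Aspn) at 297 ± 30.0 and by osteoglycin (Ogn) at 244 CPM per kb, with libraries from 222 to 263. Osteomodulin (Omd) was at 106 ± 4.29, fibromodulin (Fmod) at 45.8 ± 0.56, and Prelp at 18.1 ± 0.542 CPM per kb. Decorin (Dcn) at 4.15 ± 0.464, lumican (Lum) at 1.32 ± 0.433 and podocan (Podn) at 0.551 ± 0.111 CPM per kb closed the order, and the libraries of no neighbouring pair overlapped. At d5 in the same cells the order had changed, with Aspn first at 1280 ± 77.8, Ogn next at 806 (libraries from 796 to 821) and Bgn only then at 425 ± 3.87 CPM per kb. The order depends on the length used. Bgn has 6099 bp of exon and 1107 bp of coding sequence, and Dcn 5838 and 1062. Aspn has 2354 and 1119 bp, and Ogn 2566 and 894. Per coding length Bgn and Dcn would stand higher beside the other genes.

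FGF2 at d2.5 lowered every one of these genes, and for most of them it left only a trace of the Ctrl+vehicle level. All 9 were called lower, where 67.6% of the 13677 genes tested were called, 34.1% lower and 33.5% higher, and 7 were called with a change of at least 2-fold, where 13.9% of all genes were. The median of the 9 log2 fold changes was -4.69, beside 0.00 over all genes. No library of Ctrl+FGF2 overlapped a Ctrl+vehicle library for any of the 9, as was true of 70.5% of all genes. Bgn stood apart from the rest in the size of its change. Lum and Fmod were above the filter on low counts only through the Ctrl+vehicle libraries, so a fall was the direction that the filter could pass. With at least 10 counts required in every library these genes dropped out, and 7 of the remaining 7 were called lower.

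Among the class I genes, Bgn read 3166, 3089 and 3035 CPM in the Ctrl+vehicle libraries, 2642, 2642 and 2709 in Ctrl+FGF2, and 2682, 2616 and 2564 in Y/T dKD+FGF2. Its FGF2 effect was small but beyond the spread, at -0.23 ± 0.03 on the log2 scale (adjusted p = 9.7e-09). Dcn, which binds type I collagen and TGF-beta, read 26.1, 21.1 and 25.4 CPM in Ctrl+vehicle and 0.916, 1.02 and 0.869 in Ctrl+FGF2. That was a 25.8-fold lower level (18.8 to 36.4), with a log2 fold change of -4.69 ± 0.15 (adjusted p = 3.1e-22). Aspn, a class I protein without a glycosaminoglycan chain that binds collagen and TGF-beta, read 773, 632 and 693 CPM in Ctrl+vehicle and 13.2, 9.24 and 10.8 in Ctrl+FGF2. It was 62.9-fold lower (57.5 to 69.0), with a log2 fold change of -5.99 ± 0.08 (adjusted p = 4.7e-32). In all these genes the 3 FGF2 libraries lay together and well below the 3 vehicle libraries, except that for Bgn the gap was narrow.

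The class II genes, which encode keratan sulfate or related proteoglycans, fell to different extents. Fmod, a regulator of collagen fibril thickness, had the largest change of the family. Its Ctrl+vehicle libraries were at 150.2, 153.5 and 150.3 CPM and its Ctrl+FGF2 libraries at 0.493, 0.291 and 0.201, which rested on 7, 4 and 3 counts. The level was 464-fold lower (276 to 849), with a log2 fold change of -8.83 ± 0.11 (adjusted p = 1.4e-33). Prelp, whose basic amino terminus binds heparin and heparan sulfate, was at 67.4, 65.6 and 63.5 CPM with vehicle and at 1.69, 1.31 and 1.27 with FGF2, a 46.1-fold lower level (35.8 to 60.5) and a log2 fold change of -5.53 ± 0.10. Omd, a keratan sulfate proteoglycan of mineralized tissue, kept more of its RNA. It was at 247, 228 and 238 CPM with vehicle and 22.3, 20.2 and 21.9 with FGF2, and its log2 fold change was -3.48 ± 0.05 (adjusted p = 7.1e-31). Lum, known from the cornea, was the lowest of the class and the least precise, at 4.14, 2.07 and 3.48 CPM against 0.423, 0.218 and 0.267. Its log2 fold change was -3.37 ± 0.35 (adjusted p = 7.3e-10), and its 10.5-fold ratio had a counting interval of 5.96 to 20.3.

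Ogn, the class III member also called mimecan, was at 676, 569 and 633 CPM with vehicle and at 20.8, 20.8 and 20.4 with FGF2. The FGF2 libraries agreed closely, and the level was 30.2-fold lower (28.3 to 32.3), with a log2 fold change of -4.93 ± 0.06 (adjusted p = 2.8e-33). Podn, a class V member that binds type I collagen, was near the floor in both groups, at 2.62, 1.81 and 2.63 CPM against 1.48, 1.16 and 1.27. Its log2 fold change was -0.84 ± 0.24 (adjusted p = 0.0028). FGF2 thus left Bgn at 86.0% of its vehicle level and Podn at 56.0%, while the other 7 genes were at 0.216% to 9.49%.

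**Figure D1:**
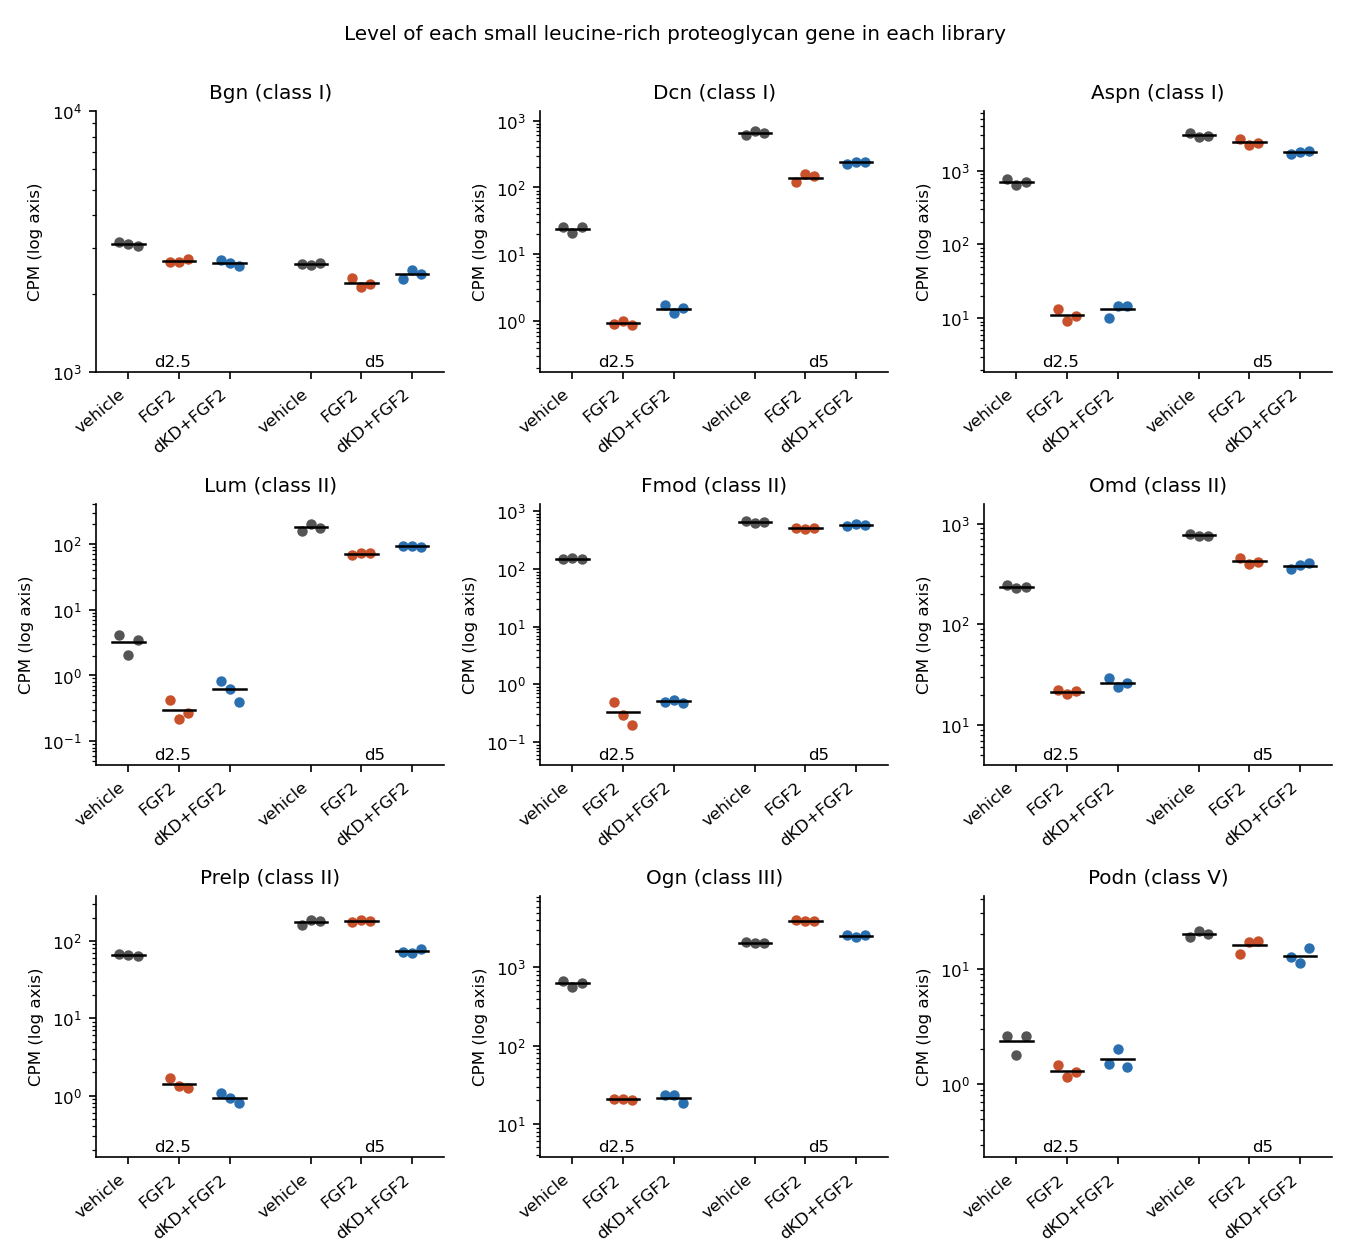
Level of each SLRP gene in each of the 18 libraries, as CPM on a log axis that differs between panels, with points for libraries and a bar for the mean of 3. At d2.5 the FGF2 and knockdown libraries lie far below vehicle for 7 genes, Bgn stays between 2126 and 3166 CPM throughout, and at d5 Ogn is highest with FGF2 while Prelp is lowest in the knockdown.

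Marker levels of several cell types moved with this change at d2.5. The 14 neural crest markers summed to 457 to 494 CPM in Ctrl+vehicle, 295 to 303 in Ctrl+FGF2 and 268 to 281 in Y/T dKD+FGF2. The summed level of the 11 osteoblast markers was 17200 to 17600 CPM in Ctrl+vehicle, 9630 to 9870 in Ctrl+FGF2 and 11700 to 12200 in Y/T dKD+FGF2. Alpl averaged 115 CPM with vehicle and 0.14 with FGF2, and Sp7 averaged 182 and 26.1 CPM. The 9 chondrocyte markers summed to 815 to 1070 CPM with vehicle and 143 to 154 with FGF2, and the 6 smooth muscle markers to 264 to 363 and 80.1 to 88.7. Of the smooth muscle markers, Cnn1, Myh11 and Myocd averaged below 1 CPM in every d2.5 group, so the sum rested on the other 3. The 5 tendon markers summed to 27.1 to 30.0 and 33.6 to 37.0 CPM, with Tnmd and Thbs4 at 0 counts. Their part in the SLRP result was not tested, and in bulk RNA fewer cells of a type and less RNA per cell cannot be told apart. Glial, adipocyte, and endothelial and blood markers each summed to at most 76.2 CPM in any library.

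With Yap and Taz lowered under FGF2 at d2.5, only Omd of the 9 genes was called, and it was higher, where 10.8% of all genes were called higher and 24.5% were called in either direction. The change of Omd was below 2-fold, and 0.592% of all genes were called with at least 2-fold. Omd read 29.4, 24.0 and 26.1 CPM in Y/T dKD+FGF2, and the 3 libraries lay above the 3 of Ctrl+FGF2 by 0.29 ± 0.07 on the log2 scale (adjusted p = 0.0033). Without replicate 1 of Y/T dKD+FGF2 the Omd difference was 0.22 with an adjusted p of 0.051, and Aspn was called instead at 0.39 with an adjusted p of 0.048. The knockdown libraries of Dcn, at 1.74, 1.32 and 1.58 CPM, also lay above those of Ctrl+FGF2, but its difference of 0.71 ± 0.29 missed the threshold (adjusted p = 0.072). Those of Prelp, at 1.08, 0.933 and 0.790 CPM, lay below, with a difference of -0.61 ± 0.27 (adjusted p = 0.12). In all, 3 genes had groups that did not overlap, where 39.4% of all genes did.

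Several of these levels were too low for a small difference to be seen. The knockdown to FGF2 ratio of Fmod was 1.55 with a counting interval of 0.736 to 3.34, that of Lum was 2.02 (0.981 to 4.34) and that of Podn was 1.26 (0.866 to 1.85). For the abundant genes the ratio was better bounded, at 1.05 (0.952 to 1.15) for Ogn, 1.19 (1.05 to 1.35) for Aspn and 0.983 (0.975 to 0.991) for Bgn, and none of these differences was called. Against Ctrl+vehicle at d2.5 the knockdown cells with FGF2 were lower in 8 genes, where 35.7% of all genes were called lower, and Podn was not called at -0.52 ± 0.24 (adjusted p = 0.053). In that comparison 69.8% of all genes were called, 71.1% had groups that did not overlap, as did the 8 genes, and 15.2% were called with at least 2-fold, as were 7 of the 9. Podn was called, and lower, without replicate 2 of Ctrl+vehicle (adjusted p = 0.017) or without replicate 2 of Y/T dKD+FGF2 (adjusted p = 0.028). Ogn was at 3.47% of the vehicle level in these cells, Aspn at 1.89% and Fmod at 0.334%. These comparisons share the Ctrl+FGF2 or the Ctrl+vehicle libraries with the FGF2 comparison.

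From d2.5 to d5 RNA of 8 SLRP genes rose in each of the 3 groups, and Bgn fell in each. In Ctrl+vehicle cells 9 of 9 genes were called, where 66.4% of the 14198 genes tested were, 33.1% higher and 33.2% lower. The libraries of the 2 days did not overlap for any of the 9 genes, as was true of 68.4% of all genes, and 8 rose at least 2-fold, where 16.4% of all genes were called with at least 2-fold. Lum rose 56.6-fold (47.8 to 67.6), to 160, 205 and 173 CPM, and Dcn rose 26.9-fold (25.3 to 28.7), to 609, 689 and 641 CPM. The other risers in these cells were Podn at 8.59-fold, Fmod and Aspn at 4.29-fold each, Ogn at 3.31-fold, Omd at 3.23-fold and Prelp at 2.70-fold. Bgn changed by -0.26 ± 0.03 on the log2 scale.

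With FGF2 the rise began from the low d2.5 levels. All 9 genes were again called in Ctrl+FGF2, where 80.0% of all genes were called, 41.2% higher and 38.8% lower, and 32.0% were called with at least 2-fold. Fmod rose 1550-fold (921 to 2830), Lum 236-fold (138 to 444), Aspn 218-fold (199 to 239), Ogn 191-fold (179 to 204), Dcn 152-fold (111 to 213) and Prelp 129-fold (100 to 168). Omd rose 19.8-fold and Podn 12.3-fold, while Bgn changed by -0.28 ± 0.03 on the log2 scale. In Y/T dKD+FGF2, where 78.4% of all genes were called, 40.3% higher and 38.1% lower, the 8 genes rose and Bgn fell, with rises from 7.78-fold for Podn to 1150-fold for Fmod. The ratios in Ctrl+FGF2 rested on 13 counts of Lum and 14 of Fmod over its 3 libraries at d2.5.

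By d5 the effect of FGF2 on the family had become smaller and was no longer of 1 sign. It was called in 8 of 9 genes, where 47.2% of the 13304 genes tested were called: 7 were lower, where 23.7% of all genes were, and Ogn was higher, where 23.5% of all genes were. Only Dcn and Lum were called with a change of at least 2-fold, where 5.80% of all genes were. The median of the 9 log2 fold changes was -0.31, beside 0.02 over all genes.

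Ogn showed a reversal. Its d5 libraries were at 2105, 2042 and 2055 CPM with vehicle and at 4040, 3917 and 3894 with FGF2, so that every FGF2 library was above every vehicle library. The log2 fold change was 0.95 ± 0.03 (adjusted p = 1.2e-12), a 1.91-fold higher level (1.89 to 1.93), and it made Ogn the most abundant of the 9 genes per kilobase in Ctrl+FGF2 at 1540 ± 30.7 CPM per kb. Dcn kept the largest fall, from 609, 689 and 641 CPM with vehicle to 119, 157 and 146 with FGF2, at -2.18 ± 0.07 (adjusted p = 3.2e-13). Lum, its neighbour on the chromosome, was next, from 160, 205 and 173 to 68.0, 73.9 and 72.3 CPM, at -1.32 ± 0.07 (adjusted p = 8.4e-11). Both genes had groups that were far apart.

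The remaining genes moved by less than 2-fold with FGF2 at d5. Omd fell from 788, 756 and 759 CPM to 459, 396 and 421, a log2 fold change of -0.84 ± 0.05 (adjusted p = 5.5e-10). Fmod, the gene with the steepest fall at d2.5, was at 674, 628 and 652 CPM with vehicle and 520.3, 491 and 504 with FGF2, at -0.35 ± 0.04. Aspn was at 3195, 2829 and 2989 CPM with vehicle and 2643, 2243 and 2397 with FGF2, at -0.30 ± 0.05. Bgn changed by -0.23 ± 0.04, the value it had at d2.5. Prelp, at 161, 188 and 179.9 CPM with vehicle and 178, 189 and 182 with FGF2, was not called (0.06 ± 0.05, adjusted p = 0.34), and its libraries overlapped. The weakest call was Podn, at 18.8, 21.1 and 19.9 against 13.5, 17.0 and 17.3 CPM (-0.31 ± 0.11, adjusted p = 0.029). It was lost without replicate 1 of Ctrl+FGF2 (adjusted p = 0.14) and without replicate 2 or 3 of Ctrl+vehicle (adjusted p = 0.084 and 0.066), and DESeq2 gave an adjusted p of 0.065. In all, 8 genes had groups that did not overlap, where 54.5% of all genes did.

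The difference between the FGF2 effects on the 2 days was tested directly. It was called in 7 genes, all towards a higher value at d5, where 60.9% of the 14198 genes tested were called, 31.8% towards a higher and 29.1% towards a lower value. Each of the 7 differed by at least 2-fold, where 19.3% of all genes were called with at least 2-fold. Fmod differed most, by 8.45 ± 0.12 on the log2 scale (adjusted p = 3.1e-29), followed by Ogn at 5.85 ± 0.08, Aspn at 5.67 ± 0.12 and Prelp at 5.57 ± 0.13. Omd differed by 2.61 ± 0.08, Dcn by 2.48 ± 0.25 and Lum by 2.02 ± 0.45. For Bgn the difference was -0.02 ± 0.05 (adjusted p = 0.72), and for Podn it was 0.51 ± 0.27 (adjusted p = 0.11), neither of which was called. The Podn difference was called without replicate 2 of Ctrl+vehicle at d2.5 (adjusted p = 0.04) or replicate 1 of Ctrl+FGF2 at d5 (adjusted p = 0.045). Marker levels also differed by day: the osteoblast markers summed to 32300 to 34600 CPM in Ctrl+vehicle, 17900 to 19300 in Ctrl+FGF2 and 24500 to 26200 in Y/T dKD+FGF2 at d5, and the smooth muscle markers to 2390 to 2550, 3220 to 3660 and 2730 to 2910. The neural crest markers summed to 387 to 395, 375 to 393 and 402 to 417 CPM in the same order of groups. Such sums weigh abundant markers most, and the smooth muscle markers Myh11 and Myocd averaged below 1 CPM in every d5 group. Single osteoblast markers went both ways at d5. Alpl averaged 162 CPM with vehicle and 54.5 with FGF2, and Ibsp 114 and 33.1. Runx2 averaged 137 ± 12.4 with vehicle and 179 ± 7.13 with FGF2 (SD, n = 3). For Sp7 the means were 35.8 ± 3.09 and 44.5 ± 7.67, a small difference beside its spread. Chondrocyte markers were at 405 to 540, 394 to 509 and 477 to 485 CPM and tendon markers at 89.6 to 124, 125 to 143 and 180 to 188, and their part in the result was not tested.

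**Figure D2:**
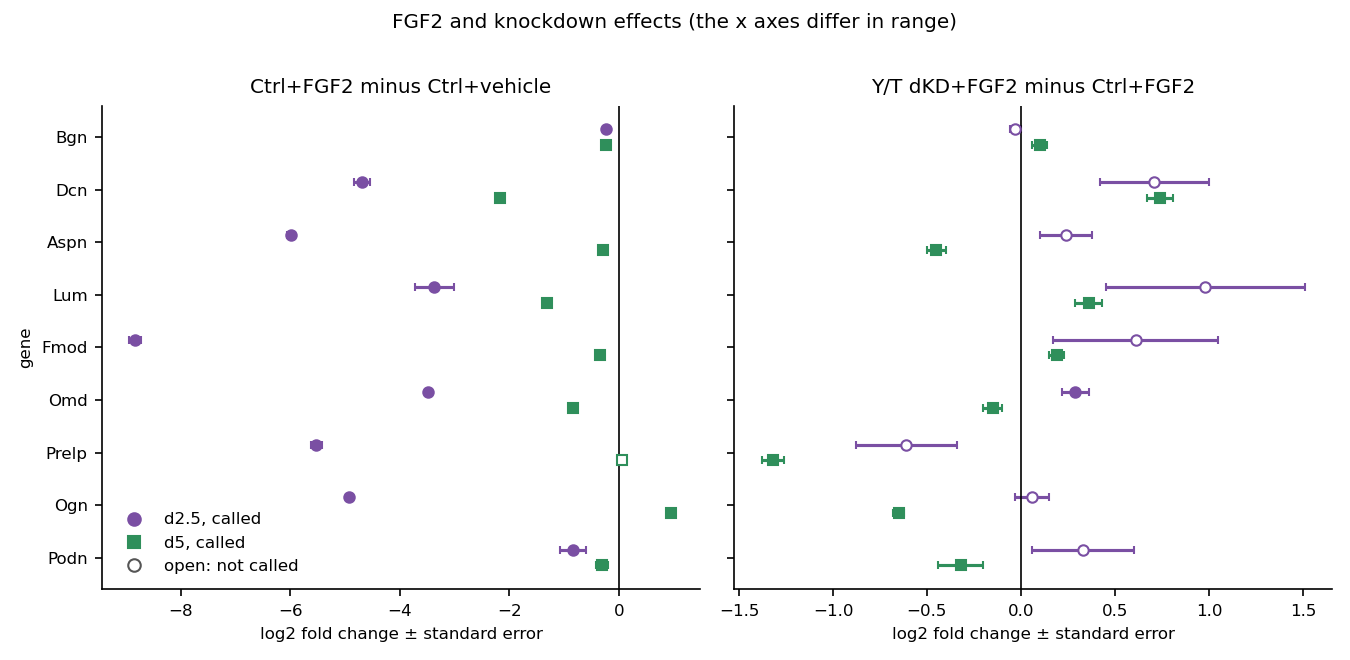
Log2 fold change with its standard error for each SLRP gene, FGF2 against vehicle on the left and knockdown against Ctrl+FGF2 on the right, at d2.5 (circles) and d5 (squares), with open symbols for genes not called. The error bars understate the uncertainty of large changes that rest on few counts. FGF2 effects reach -8.83 at d2.5 and lie between -2.18 and 0.95 at d5, and the knockdown effects at d5 fall on both sides of 0, from -1.32 for Prelp to 0.74 for Dcn.

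At d5 the knockdown under FGF2 split the family. All 9 genes were called, where 31.7% of all genes were. Dcn, Lum, Fmod and Bgn were higher than in Ctrl+FGF2, where 15.6% of all genes were called higher, and Prelp, Ogn, Aspn, Podn and Omd were lower, where 16.1% of all genes were called lower. Only Prelp was called with a change of at least 2-fold, where 3.19% of all genes were. The FGF2 and the knockdown comparison use the same Ctrl+FGF2 libraries, so their values are set side by side below and not related to each other by a test.

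Prelp gave the largest knockdown effect. It was at 71.7, 70.6 and 79.5 CPM in Y/T dKD+FGF2 against 178, 189 and 182 in Ctrl+FGF2, so the knockdown libraries lay far below (-1.32 ± 0.06, adjusted p = 1.5e-11). It was also below Ctrl+vehicle, by -1.25 ± 0.06, in a gene for which FGF2 alone was not called. Ogn was at 2560, 2455 and 2584 CPM in the knockdown against 4040, 3917 and 3894 in Ctrl+FGF2 (-0.65 ± 0.03, adjusted p = 2.0e-10), and it remained above Ctrl+vehicle by 0.30 ± 0.03. The knockdown libraries of Aspn, at 1699, 1800 and 1845 CPM, were below those of Ctrl+FGF2 (-0.45 ± 0.05, adjusted p = 4.3e-06), which were themselves below vehicle. Against Ctrl+vehicle the difference of Aspn was -0.75 ± 0.05.

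Of the genes that were higher in the knockdown, Dcn changed most. It was at 225, 243 and 242 CPM against 119, 157 and 146 in Ctrl+FGF2 (0.74 ± 0.07, adjusted p = 3.5e-07), and it stayed below Ctrl+vehicle by -1.44 ± 0.07. Lum was at 93.0, 93.5 and 90.1 CPM against 68.0, 73.9 and 72.3 (0.36 ± 0.07, adjusted p = 0.00078), and Fmod at 558, 604 and 575 against 520.3, 491 and 504 (0.19 ± 0.04, adjusted p = 0.0011). The knockdown libraries of these genes lay above every Ctrl+FGF2 library and below every Ctrl+vehicle library. Against vehicle the difference of Lum was -0.96 ± 0.07 and that of Fmod was -0.16 ± 0.04.

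For Bgn, Omd and Podn the knockdown and Ctrl+FGF2 libraries overlapped at d5 and the calls were fragile. Bgn was at 2280, 2459 and 2381 CPM in the knockdown (0.10 ± 0.04, adjusted p = 0.036), Omd at 357, 387 and 407 (-0.15 ± 0.05, adjusted p = 0.028) and Podn at 12.5, 11.2 and 15.2 (-0.32 ± 0.12, adjusted p = 0.049). Bgn lost its call without replicate 3 of Ctrl+vehicle, replicate 2 or 3 of Ctrl+FGF2, or replicate 2 or 3 of Y/T dKD+FGF2, with adjusted p between 0.053 and 0.2. Omd lost its call without replicate 1 or 3 of Ctrl+FGF2 or replicate 1 or 2 of Y/T dKD+FGF2, with adjusted p between 0.059 and 0.17. Podn lost its call without replicate 3 of Ctrl+vehicle, replicate 2 or 3 of Ctrl+FGF2, or replicate 1 or 2 of Y/T dKD+FGF2, with adjusted p between 0.067 and 0.22. The other 6 genes had groups that did not overlap, where 45.0% of all genes did, and kept their calls whichever library was left out.

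The knockdown effect differed between the days in 4 genes, where 20.9% of all genes were called and 2.32% were called with at least 2-fold, as none of the 4 was. Ogn differed by -0.71 ± 0.09 (adjusted p = 1.6e-06), Aspn by -0.70 ± 0.16 (adjusted p = 0.0022) and Omd by -0.45 ± 0.10 (adjusted p = 0.0013), all towards a lower value at d5, where 9.35% of all genes were called lower. Bgn differed by 0.13 ± 0.05 (adjusted p = 0.035), towards a higher value, where 11.6% of all genes were. This call was lost without any 1 of the Ctrl+FGF2 libraries of d2.5, and without replicate 2 or 3 of Y/T dKD+FGF2 on either day or of Ctrl+FGF2 at d5, with adjusted p between 0.065 and 0.13. For Prelp the difference of -0.70 ± 0.32 was not called (adjusted p = 0.12), so its strong effect at d5 was not shown to differ from that at d2.5. Against Ctrl+vehicle at d5 the knockdown cells with FGF2 were called in all 9 genes, where 41.8% of all genes were. Ogn was the gene that was higher, where 20.7% of all genes were, and the other 8 were lower, where 21.1% of all genes were. Dcn and Prelp were called with at least 2-fold, where 4.83% of all genes were, and the groups did not overlap for any of the 9, as was true of 51.9% of all genes. Bgn, at -0.12 ± 0.04, lost its call without replicate 1 of Y/T dKD+FGF2 (adjusted p = 0.075).

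Summed per kilobase of exon, the 9 genes reached 1291, 1167 and 1214 CPM per kb in the Ctrl+vehicle libraries at d2.5 and 458, 455 and 467.5 in those with FGF2. Without Bgn the contrast was sharper, from 716 ± 55.8 to 23.4 ± 1.45 CPM per kb, and Y/T dKD+FGF2 was at 27.1 ± 0.828. Bgn therefore made up 41.5 ± 1.66% of the summed level with vehicle, 94.9 ± 0.315% with FGF2 and 94.1 ± 0.0507% in the knockdown. Such shares, like the order of the genes, depend on the use of exon length. At d5 the sum was 3283 ± 86.4 CPM per kb with vehicle and 3381 ± 139 with FGF2, with overlapping libraries, and it was 2580 ± 60.1 in the knockdown, whose highest library at 2640 lay below the lowest of the others. The composition differed more than the sum. Aspn held 38.9 ± 1.35% and Ogn 24.5 ± 0.27% of it with vehicle, while with FGF2 Ogn held 45.6 ± 1.11% and Aspn 30.5 ± 1.30%. In the knockdown Ogn held 38.3 ± 1.27% and Aspn 29.3 ± 0.586%.

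**Figure D3:**
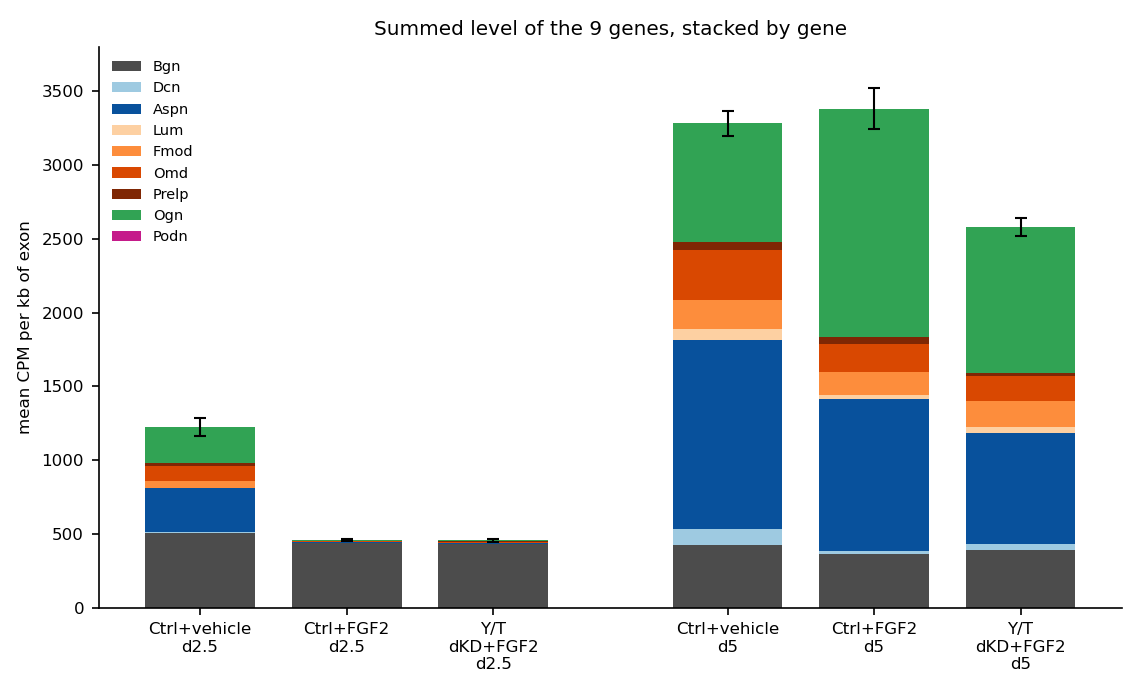
Mean CPM per kb of exon of the 9 SLRP genes, stacked by gene in each group from 0, with the SD of the sum over 3 libraries as the error bar. With FGF2 at d2.5 nearly all of the 460 CPM per kb is Bgn, whereas at d5 the sums with vehicle (3283) and FGF2 (3381) overlap in their libraries and Ogn takes the largest part with FGF2.

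The order of the genes within a group followed these shifts. In Ctrl+FGF2 at d2.5 Bgn at 437 ± 6.40 CPM per kb was followed by Omd at 9.53 ± 0.495, Ogn at 8.05 ± 0.0921 and Aspn at 4.71 ± 0.839. At the bottom, the libraries of Dcn, Lum and Fmod overlapped those of their neighbours in the order, between 0.0993 and 0.16 CPM per kb on average. In Y/T dKD+FGF2 at d2.5 the libraries of Dcn, Prelp, Lum and Fmod overlapped likewise, with means between 0.153 and 0.265 CPM per kb. At d5 the only neighbours whose libraries overlapped were Fmod at 175 ± 7.03 and Omd at 171 ± 11.3 CPM per kb in the knockdown. Podn was last in every d5 group, at 3.04 to 4.67 CPM per kb.

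Most SLRP genes lie in clusters, and coordinates here are those of GENCODE M21 on GRCm38. Aspn (ENSMUSG00000021388.14, chr13:49544443-49567565), Omd (ENSMUSG00000048368.9, chr13:49582462-49592822) and Ogn (ENSMUSG00000021390.6, chr13:49608046-49624501) lie on the plus strand within 80.1 kb. Dcn (ENSMUSG00000019929.16, chr10:97479609-97518143) and Lum (ENSMUSG00000036446.5, chr10:97565128-97572703) lie on the plus strand within 93.1 kb. Prelp (ENSMUSG00000041577.5, chr1:133910304-133921414, minus strand) and Fmod (ENSMUSG00000041559.7, chr1:134037254-134048277, plus strand) lie within 138 kb. Bgn (ENSMUSG00000031375.17, chrX:73483602-73495933, plus strand) and Podn (ENSMUSG00000028600.15, chr4:108014791-108096445, minus strand) have no other SLRP gene beside them. At d5 FGF2 raised Ogn and lowered its neighbours Omd and Aspn.

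The chromosome 13 cluster also holds Ecm2, an extracellular matrix protein with leucine-rich repeats, 11.7 kb from Aspn. Ecm2 fell with FGF2 at d2.5 (-3.55 ± 0.34, adjusted p = 9.0e-11), from a mean of 3.62 to 0.298 CPM, and was not called at d5 (0.02 ± 0.12, adjusted p = 0.93). At d2.5 it had 13 counts in the Ctrl+FGF2 libraries together and 20 in those of Y/T dKD+FGF2. Like Lum and Fmod it was above the filter on low counts only through Ctrl+vehicle, so a fall was the direction that the filter could pass. Nol8, the next gene after Ogn on the same strand, changed by 0.16 ± 0.06 at d2.5 and -0.49 ± 0.07 at d5. Cenpp runs along the whole cluster on the opposite strand and overlaps exons of Aspn. It had 2170 counts in all libraries together, beside 272703 of Aspn, and changed by -0.47 ± 0.09 at d2.5. Btg2, 26.9 kb from Fmod, changed by 0.11 ± 0.09 (adjusted p = 0.29). Prelp exons overlap an antisense transcript, Gm15851, and Podn shares its strand with Scp2 without a shared exon. Counting was strand-specific as far as the files show, with 96.0% to 96.6% of stranded counts in the column used, and unstranded counts changed the side of the threshold for 1 value among the 99 member values.

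**Figure D4:**
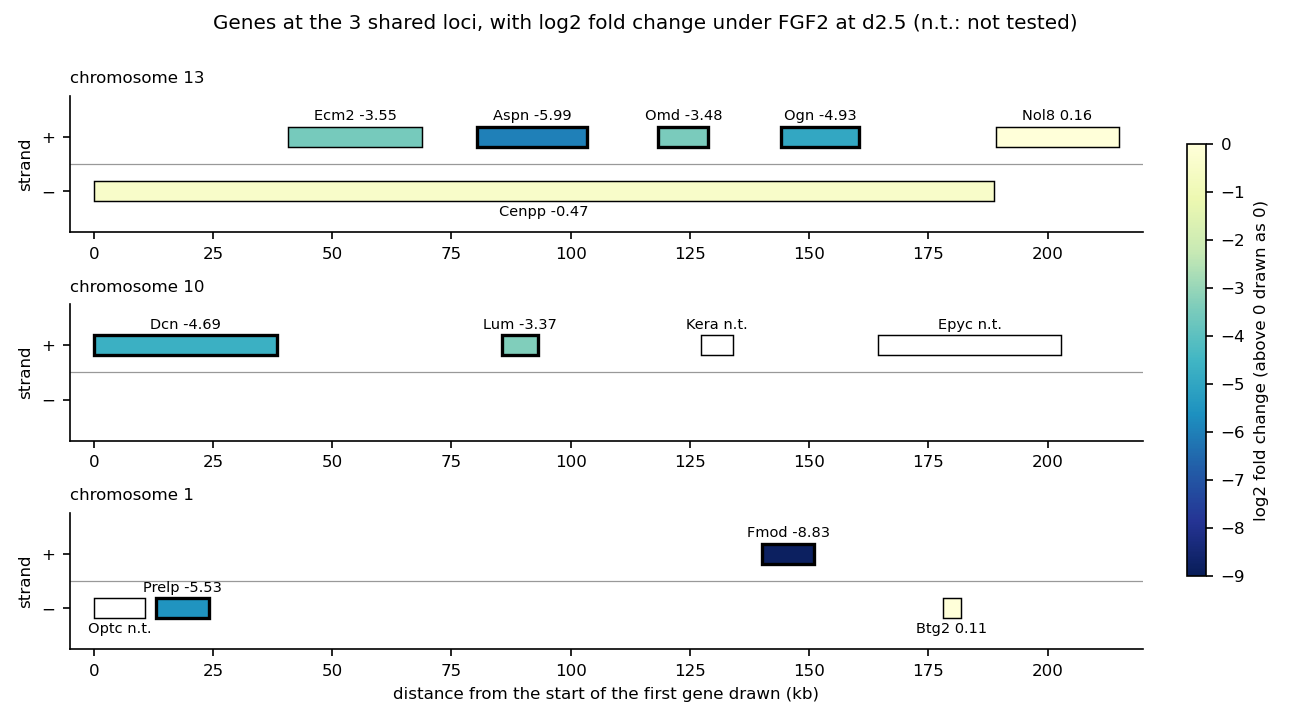
Gene positions at the 3 loci that hold more than 1 SLRP gene, as distance in kb from the first gene drawn, with the plus strand above the line, SLRP genes examined here outlined in bold, and colour and number giving the log2 fold change with FGF2 at d2.5. The 3 genes on chromosome 13 and Ecm2 lie between -3.48 and -5.99, while Nol8 at 0.16 and Btg2 at 0.11 lie near 0 (n.t., not tested for low counts). Lum, Fmod and Ecm2 passed the filter on low counts only through the Ctrl+vehicle libraries.

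Because Aspn, Omd and Ogn lie side by side and fell together at d2.5, the 250 bases before their RefSeq start sites are shown (GRCm38.p6, plus strand, chr13:49544193-49544442, chr13:49582212-49582461 and chr13:49607765-49608014). Capitals mark matches to 3 motifs searched on both strands, GGAATG for Tead, the DNA-binding partners of Yap and Taz, TGANTCA for AP-1 and TGTGGT for Runx factors.
Aspn: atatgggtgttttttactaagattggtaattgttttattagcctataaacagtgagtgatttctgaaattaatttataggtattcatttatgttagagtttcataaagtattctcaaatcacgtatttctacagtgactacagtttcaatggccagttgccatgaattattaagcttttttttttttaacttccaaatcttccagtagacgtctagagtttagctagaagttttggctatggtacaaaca
Omd: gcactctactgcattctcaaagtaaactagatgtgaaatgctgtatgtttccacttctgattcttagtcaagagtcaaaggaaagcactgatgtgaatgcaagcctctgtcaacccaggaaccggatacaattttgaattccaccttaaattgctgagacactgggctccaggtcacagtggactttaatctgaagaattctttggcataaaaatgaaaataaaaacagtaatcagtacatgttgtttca
Ogn: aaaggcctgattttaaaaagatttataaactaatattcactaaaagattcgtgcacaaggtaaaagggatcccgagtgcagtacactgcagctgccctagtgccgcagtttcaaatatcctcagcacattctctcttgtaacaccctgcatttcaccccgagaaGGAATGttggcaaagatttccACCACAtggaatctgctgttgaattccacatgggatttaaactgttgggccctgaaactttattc
Only Ogn held a match, GGAATG with its first base at -86 and ACCACA, the Runx letters on the other strand, at -65 from the start site, and these do not overlap. RefSeq gave 8 promoters for 7 of the 9 genes, and none for Dcn and Lum. In windows reaching 50 bases past the start, the Tead letters were in 1 of these 8 and in 14.7% of all 32851 promoters, the Runx letters in 1 of 8 and 16.8%, and the AP-1 letters in 0 of 8 and 7.81%. The sequences before the start of Aspn and Omd were poor in G and C, at 30.0% and 38.4%, as was that of Ogn at 42.0%, beside a median of 52.4% over all promoters. A match is a description of the letters and not evidence of binding.

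Much of the rest of the SLRP family was scarce in these cells, but Podnl1 averaged 20.0 to 208 CPM and Tsku 15.1 to 36.6 over the 6 groups. Of 9 further genes, Kera, Epyc, Optc, Chad and Nyx stayed below 1 CPM on average in every group, and 4 could be tested. Podnl1, a close relative of Podn, averaged 47.0 CPM with vehicle and 28.7 with FGF2 at d2.5 (-0.72 ± 0.07, adjusted p = 2.9e-10), and fell again with knockdown to 20.0 (-0.53 ± 0.09, adjusted p = 3.4e-05). At d5 the knockdown raised it, from 131 to 208 CPM (0.66 ± 0.05, adjusted p = 7.3e-09). In total 3 of the 4 were called lower with FGF2 at d2.5, where 34.1% of all genes were, with a median of -0.79. Among them Ecm2 passed the filter on low counts only through the Ctrl+vehicle libraries. Tsku, a secreted leucine-rich repeat protein, was not called at d2.5 (-0.12 ± 0.08) and was higher with FGF2 at d5 (0.26 ± 0.08, adjusted p = 0.011).

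Genes of the collagens that SLRP proteins bind were mostly lower with FGF2 on both days. The counts of this and the following lists with FGF2 stand beside 67.6% of all genes called at d2.5 (34.1% lower) and 47.2% at d5 (23.7% lower). Of 13 genes of fibrillar collagens and their partners tested, 12 were lower with FGF2 at d2.5 (median -1.51) and 12 at d5 (median -0.66). Col2a1, the main collagen of cartilage and also one of the chondrocyte markers, went from 460 to 0.985 CPM at d2.5 (-8.87 ± 0.18), and Col12a1, a collagen that associates with fibrils, from 1090 to 114 (-3.27 ± 0.06). With knockdown at d5, 7 of the 13 were higher and 2 were lower (median 0.25), and Col12a1 was one that was lower (-0.29 ± 0.04). These lists, like the SLRP genes, were chosen with earlier results of these data known.

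Enzymes that build the sulfated chains changed in both directions. Of 23 genes for chondroitin and dermatan sulfate synthesis, 6 were higher and 13 lower with FGF2 at d2.5 (median -0.39), and 5 were higher and 8 lower at d5 (median 0.01). Chst11, a chondroitin 4-sulfotransferase, fell from 90.3 to 28.5 CPM (-1.67 ± 0.05) and Chst12 from 56.1 to 24.9 (-1.18 ± 0.06), while Chst15 rose from 6.62 to 38.4 (2.52 ± 0.09) and Csgalnact1 from 48.6 to 109 (1.15 ± 0.05). Of 13 genes for keratan sulfate and the sulfate donor, 3 were higher and 7 lower at d2.5 (median -0.43), and 4 and 3 at d5 (median 0.05). Papss2, which makes the sulfate donor, fell from 42.0 to 3.83 CPM (-3.47 ± 0.11) and was still lower at d5 (-1.72 ± 0.08). Chst2 fell (-2.23 ± 0.11), and Chst1 and Fut8 rose (0.62 ± 0.14 and 0.55 ± 0.05). With knockdown at d5 the chondroitin list had 6 higher and 5 lower (median 0.03) and the keratan list 3 and 3 (median 0.03).

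Of 12 genes for processing and turnover of the core proteins, 1 was higher and 10 were lower with FGF2 at d2.5 (median -1.20), and 2 were higher and 4 lower at d5 (median -0.07). The collagenase gene Mmp13 went from 54.2 to 0.395 CPM (-7.07 ± 0.19), and at d5 it was lower with FGF2 (-0.96 ± 0.09) and higher with knockdown (1.59 ± 0.09). Adamts4, an aggrecanase, fell at d2.5 (-2.97 ± 0.09), and Timp3, an inhibitor of metalloproteinases, rose (0.93 ± 0.06). The TGF-beta list of 11 genes held ligands, which decorin, biglycan and asporin can engage, receptors and latency genes. It also held Tgfbi, which is none of these. In the list 3 were higher and 8 lower at d2.5 (median -0.42), and 4 were higher and 3 lower at d5 (median -0.03). Tgfbi fell from 1500 to 277 CPM (-2.45 ± 0.03) and Tgfb3 fell (-0.87 ± 0.06), while Tgfbr3 and Ltbp1 rose (0.85 ± 0.06 and 0.84 ± 0.03). Of 12 receptor genes tested at d2.5, 4 were higher and 7 lower (median -0.15), and of 13 at d5, 5 were higher and 4 lower (median 0.13). Itga2, a subunit of a collagen-binding integrin, rose from 0.601 to 5.45 CPM (3.14 ± 0.24), P2rx7 rose (1.51 ± 0.27), and Itga1 and Lrp1 fell (-1.44 ± 0.15 and -0.90 ± 0.04).

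The counts with knockdown under FGF2 stand beside 24.5% of all genes called at d2.5 and 31.7% at d5. At d2.5 the fibrillar collagen list had 3 genes higher and 6 lower of 13 (median -0.07), the chondroitin list 2 and 6 of 23 (median -0.03), and the keratan list 3 and 2 of 13 (median 0.03). The turnover list had 3 higher and 1 lower of 12, the TGF-beta list 3 and 2 of 11, and the receptor list 2 and 1 of 12. At d5 the turnover list had 6 higher and 2 lower (median 0.13), the TGF-beta list 4 and 3 (median -0.06), and the receptor list 3 and 4 of 13 (median 0.04). Tgfbi, a matrix protein that TGF-beta induces, was among those higher at d5, from 157 to 387 CPM (1.29 ± 0.04), and Itga1 among those lower, from 24.2 to 13.2 CPM (-0.88 ± 0.12).

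**Figure D5:**
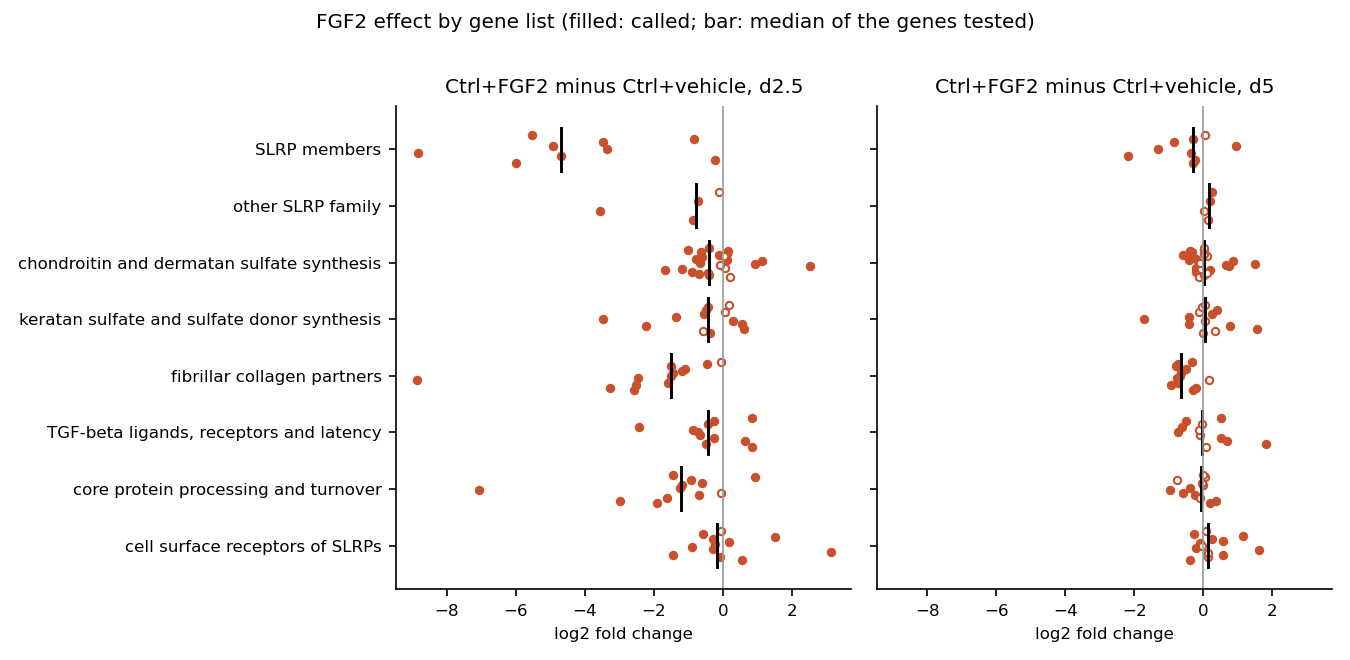
Log2 fold change with FGF2 at d2.5 (left) and d5 (right) for the 9 SLRP genes and for 7 lists of related genes, 1 point per gene, filled where called, with a bar at the median of the genes tested. The SLRP median is -4.69 at d2.5 and -0.31 at d5, and the next lowest at d2.5 is that of the fibrillar collagen list at -1.51.

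The patterns over the 6 group means were compared with those of 11833 other genes, as the root mean square difference of centred log2 levels. This is a description over 6 groups and not a test. Ogn and Aspn were 0.52 apart, while Omd, from the same cluster, was at least 0.95 from each of the other 8 genes examined. Distances to further SLRP family genes such as Ecm2 are not given. Kctd12 was among the 3 nearest genes of Dcn, Ogn and Aspn (0.68, 0.50 and 0.45). The nearest to Fmod were Itga11, a collagen-binding integrin subunit, at 0.78, Aspn at 0.83 and Mmp13 at 0.93. Prelp was nearest to Aspn and Ogn (0.64 each) and then Tmtc1 (0.70), and Ogn also to Col9a2 (0.53) and Aspn to Itga11 (0.46). Dcn was nearest to C1qtnf3 (0.64), with Lum among its 3 nearest (0.69), while Lum was nearer to Ackr4 (0.36), Rtl3 (0.48) and Cacna1g (0.49). Omd resembled Atp2b4 (0.20), Sema6d (0.21) and Igsf10 (0.33), and Podn resembled Cd302 (0.13), Cercam (0.18) and Lrrn4cl (0.19). Bgn was nearest to Vcp, Herc2 and Mlst8 (0.03 to 0.04) and at least 1.57 from each of the other 8 genes examined.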

How the data were processed

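Polyadenylated RNA of 18 O9-1 libraries, 3 per group and day, was sequenced from SMARTER libraries. The authors deposited raw counts per gene in the layout of STAR gene counts. The submitters' processing notes name FastQC, STAR, Picard and featureCounts and the build mm10, and the annotation release and the roles of the tools are not given in the sources used here. The stranded counts of column 4 were used, and the leading rows that name no gene (unmapped, multimapped, ambiguous or on no feature), which held 27.0% to 34.4% of that column, were left out. Depth was 10377151 to 14698525 gene counts per library. Of 55335 identifiers, 55154 matched GENCODE M21 when versions were ignored. No 2 libraries held identical values.

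Each day was fitted with edgeR 4.0.16 (R 4.3.3; TMM factors, filterByExpr, quasi-likelihood test, Benjamini-Hochberg adjustment over all genes tested) over its 9 libraries, and differences between days over all 18. The fitting was tested on simulated data. Tables and plots used Python 3.11.15 and pandas 2.3.3. SLRP genes and lists were chosen with earlier results of these data known. Named genes of a list were those with the 2 largest rises and falls with FGF2 at d2.5 among called genes of at least 1 log2 CPM, and named patterns were the 3 nearest genes, with 0.5 CPM added before logs. Ecm2, Tsku, Alpl, Sp7, Ibsp, Runx2 and the neighbours of SLRP genes were named after their values were seen. Alternatives were DESeq2 1.42.0, RLE and upper-quartile factors, other filters, thresholds and libraries, unstranded counts, a replicate block and leaving out each library.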

Additional observations from a re-analysis of the deposited data

Results flagged for a closer look

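The FGF2 effect differed between d5 and d2.5 in 7 SLRP genes by the test of that difference, which was 8.45 on the log2 scale for Fmod, 5.85 for Ogn, 5.67 for Aspn, 5.57 for Prelp, 2.61 for Omd, 2.48 for Dcn and 2.02 for Lum. At d2.5 these genes were 10.5-fold (Lum) to 464-fold (Fmod) lower with FGF2, and at d5 Ogn was 1.91-fold higher and Prelp was not called.

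The knockdown effect under FGF2 differed between the days in Ogn by -0.71, in Aspn by -0.70, in Omd by -0.45 and in Bgn by 0.13. The Bgn difference was lost with upper-quartile factors (adjusted p = 0.071) and without a filter on low counts (adjusted p = 0.11). Day and the batch named in the labels cannot be told apart in any of these.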

How the results depend on the processing

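None of the log2 fold changes of the SLRP genes reversed under any alternative: 2007 kept their side of the threshold, 35 lost a call and 8 gained one, in Bgn, Omd, Aspn and Podn only. Asking for at least 2-fold moved the calls to 0 for knockdown at d2.5, 2 for FGF2 at d5, 1 for knockdown at d5 and 2 for knockdown with FGF2 against vehicle at d5. The ratio of summed levels with FGF2 to vehicle went from 0.376 to 0.543 at d2.5 with coding lengths, and from 1.03 to 1.12 at d5 with raw library totals.

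Leaving out 1 library at a time gave 9 called genes for FGF2 and 1 for knockdown at d2.5, 7 to 8 for FGF2 and 6 to 9 for knockdown at d5, 8 to 9 for knockdown with FGF2 against vehicle on either day, 7 to 8 for the day difference of the FGF2 effect, 3 to 4 for that of the knockdown effect, and 9 for d5 against d2.5 in each group. Ratios of summed levels stayed at 0.367 to 0.387 and 1.01 to 1.05 for FGF2, and 0.981 to 1.0 and 0.75 to 0.781 for knockdown, at d2.5 and d5. The replicate block left all 72 values on their side of the threshold, for example 9 genes called for FGF2 at d2.5 and 9 for knockdown at d5. Same-numbered libraries deviated together little (r of -0.08 to 0.04 at d2.5 and -0.06 to 0.16 at d5, and 1 of 9 and 6 of 9 libraries closest to their own number). Weak correlations cannot show that pairing was absent, so whether same-numbered samples were paired was not settled. At 3 to 10 counts per library, a small difference in Fmod or Lum between Ctrl+FGF2 and knockdown at d2.5 was not detectable.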
